A study of Mus musculus with 4 samples.

Results

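The microRNAs (miRNAs) mmu-miR-451, mmu-miR-144 and mmu-miR-486 are those most closely tied to red blood cells, and their levels were followed in the lungs of newborn and adult mice with and without high oxygen. They were taken by name from the miRBase column of the deposited table, and 3 of its 750 miRNA assays matched. No second assay, for another strand or species, carried any of these names. The study set out to follow miRNAs through lung development and under hyperoxia by quantitative PCR. Its 4 groups were newborn mice in room air, newborn mice in 95% oxygen, adult mice in room air and adult mice in 95% oxygen, each exposed for 72 h. Newborns entered the exposure before 12 h of age and were collected on day 3, and the adults were aged 2 months. In all groups the pulmonary artery was flushed with saline before the right lung was frozen, so the blood cells read here are those that stayed after the flush. Nursing dams moved daily between both atmospheres. Each group had 1 library. The sources used here give neither the strain nor how many animals a library holds.

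Red cell precursors make miR-451 and miR-144 from a single primary transcript that the transcription factor GATA1 switches on. miR-451 matures without Dicer: its short hairpin is cut by Argonaute2 itself, whereas miR-144 follows the usual Dicer route. Mature red cells have no nucleus but keep these miRNAs, and miR-451 is among their most abundant. miR-486 is made with ankyrin-1, a protein of the red cell membrane skeleton, and is also abundant in heart and skeletal muscle.

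In RefSeq (build GRCm38.p6) the hairpin genes Mir144, at chr11:78073005-78073070, and Mir451a, at chr11:78073170-78073241, lie on the plus strand with 99 bases between them. No other RefSeq gene spans Mir144, and Mir451a is overlapped only by Mir451b, annotated on the opposite strand over the same 72 bases. The genes Mir486 and Mir3107, the second of which also carries the name mir-486b, lie within Ank1, the ankyrin-1 gene, and Gm15816 on chromosome 8. A RefSeq mature sequence matched 2 of the 3 members. They are shown because they give the readers of the shared transcript, with the seed (bases 2 to 8, which pair with target mRNAs) in capitals.
miR-451: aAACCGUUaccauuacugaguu
miR-144: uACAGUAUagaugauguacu

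The hairpins show how differently these neighbours sit in their precursors, with the mature miRNA in capitals.
Mir451a hairpin: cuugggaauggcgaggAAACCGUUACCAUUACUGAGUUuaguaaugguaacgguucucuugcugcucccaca
Mir144 hairpin: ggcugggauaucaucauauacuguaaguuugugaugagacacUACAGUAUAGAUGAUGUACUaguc
Mature miR-451 covers bases 17 to 38 of 72, and mature miR-144 covers bases 43 to 62 of 66. Of 1679 mature miRNA names in the RefSeq table, 0 others share the bases 2 to 8 of miR-451 and 0 those of miR-144. miR-101a shares bases 2 to 7 with miR-144 and is shown with those in capitals.
miR-101a: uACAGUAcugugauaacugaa

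Each library was read on 2 cards, with miR-451 and miR-486 on the first card and miR-144 on the second. A well gives a threshold cycle (Ct), which falls by about 1 for each doubling of RNA. Levels below are log2 values against the small nucleolar RNA snoRNA202 of the same card, with higher values for more RNA. An assay counted as detected at a Ct of 35 or below. By that limit 468 to 507 miRNA assays were detected per library and 426 in all 4. Endothelial (miR-126-3p, miR-126-5p, miR-218, miR-139-5p) and epithelial (miR-200 family) miRNAs of lung were detected in every library, 4 of 4 and 5 of 5, with Ct between 9.96 and 19.3. The panel holds only small RNAs, so globin and other red cell mRNAs were not analysed here. The technical SD of a difference between 2 libraries, from 4 control RNAs read on both cards, was 0.26 log2 for the newborn oxygen pair and 0.33 for the adult oxygen pair. It was 0.65 for age in room air and 0.95 for age in hyperoxia. These SDs leave out variation between animals. In the wells that share a plate row with each member, Ct correlated with the mean of the other libraries at r = 0.80 to 0.97 in every library.

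All members were detected in all libraries, miR-486 and miR-451 early and miR-144 late. The Ct of miR-486 ran from 18.9 to 19.3, that of miR-451 from 19.4 to 21.0 and that of miR-144 from 26.8 to 27.3. Control RNAs were read at a Ct of 24.0 or below, so no repeat measurement exists at the Ct of miR-144. Amplification differs between assays, so these values do not rank the miRNAs by abundance.

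miR-451 stood at -6.54 log2 in newborns in room air and -7.45 in newborns in hyperoxia, and for adults at -6.42 in room air and -6.55 in hyperoxia. The neonatal hyperoxia library was the low one, and the other 3 lay within 0.13 of one another. miR-144, encoded beside it, stood at -12.02, -12.71, -13.19 and -13.51 in the same order. Both adult libraries were below both neonatal ones. miR-486 stood at -4.88, -5.44, -5.91 and -6.23, again with both adult libraries lowest. Each hyperoxia library was below the room air library of its age for each of the 3 miRNAs.

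**Figure D1:**
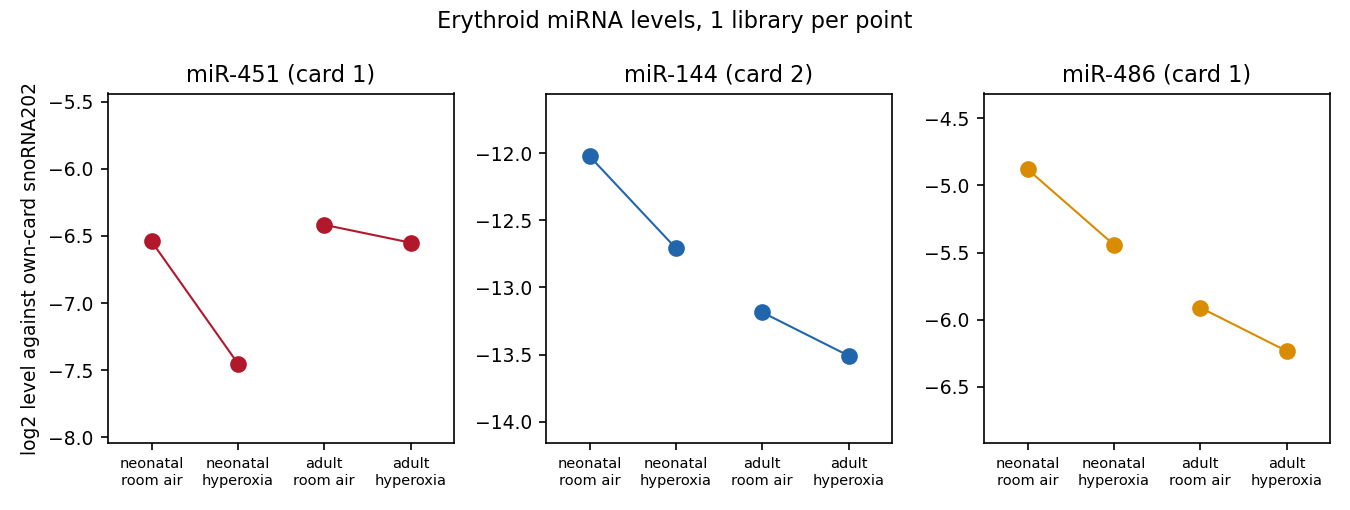
Level of each member (vertical axis, log2 against own-card snoRNA202, a different range in each panel with the same height) in the 4 libraries (horizontal axis), 1 point per library, with lines joining room air and hyperoxia of 1 age. miR-144 and miR-486 step down from neonatal to adult, while miR-451 is lowest in neonatal hyperoxia at -7.45.

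In newborn lung the erythroid miRNAs were lower after hyperoxia on the snoRNA202 scale, by more than the technical SD of the control RNAs but by less than 2-fold. No control RNA was read at the Ct of miR-144, so that SD may not hold for it. miR-451 differed by -0.91 log2, or 1.88-fold lower, which is 3.56 technical SDs. miR-144 differed by -0.69 (1.61-fold lower) and miR-486 by -0.56 (1.48-fold lower). In all, 3 of 3 members were below 0 and 0 of 3 were at least 2-fold lower. Among the 469 assays detected in both libraries, 41.4% were below 0, 8.53% were at least 2-fold lower and 13.6% at least 2-fold higher. The median of the members was -0.69, against 0.13 for all assays. On the first card, which holds miR-451 and miR-486, the median of all assays was 0.24, and on the second, which holds miR-144, it was -0.04. Of assays within 1.5 cycles of the mean Ct of miR-144, 25% differed at least 2-fold in this pair, against 10% around miR-451 and 11.1% around miR-486. The 6 references tried were own-card snoRNA202, own-card U6, own-card snoRNA135 with snoRNA202, the deposited delta Ct against snoRNA202, library means and card medians. For the members the deposited delta Ct repeats own-card snoRNA202 except for miR-144 in adult room air. Elsewhere it could not disagree and is no separate check. The members were below 0 under all 6, with miR-451 between -0.91 and -1.11 and miR-486 between -0.56 and -0.76. miR-144 lay between -0.18 (with U6 as reference, within the technical SD) and -0.76. Under 2 of the 6, miR-451 was at least 2-fold lower. In bulk lung RNA, fewer red cells and less of a miRNA per cell cannot be told apart.

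In adult lung the same 3 miRNAs also lay below 0 after hyperoxia, but within about 1 technical SD. miR-451 differed by -0.13 log2, miR-144 by -0.32 and miR-486 by -0.32 (1.25-fold lower each). Again 0 of 3 were 2-fold lower, with 8.26% of 448 assays at least 2-fold lower and 3.79% at least 2-fold higher. The median of all assays was itself at -0.24, and 71.4% of them were below 0. Relative to the median difference of the assays on its own card, the values were 0.16 for miR-451, -0.17 for miR-144 and -0.03 for miR-486. The sign held under all 6 references for miR-144 only. miR-451 lay above 0 under 4 of the 6, up to 0.53 once libraries were centred on their means, and miR-486 under 1, at 0.34.

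The oxygen difference in adults minus that in newborns was 0.78 log2 for miR-451, 0.36 for miR-144 and 0.24 for miR-486, with a technical SD of 0.42. With 1 library per group this difference between ages has no test. A limma model that takes age and oxygen to add up over the 4 libraries was fitted to all 426 assays detected in all of them. Its oxygen effect was -0.52 ± 0.37 log2 (effect ± SE) for miR-451, -0.50 ± 0.31 for miR-144 and -0.44 ± 0.30 for miR-486, each with a limma adjusted p of 0.988 by Benjamini-Hochberg. None of the 3 passed the threshold of 0.05, and over all 426 assays 0% were called in either direction. Before adjustment, 13 of the 426 had a limma p under 0.05, and none of these was a member (unadjusted p = 0.247, 0.201 and 0.236). The residual of miR-451 (0.39) was the widest of the 3, against 0.18 for miR-144 and 0.12 for miR-486. In this fit the residual only restates the oxygen difference in adults minus that in newborns, which has no test. The p-values set each effect against that residual, pooled with a prior from all 426 assays, and not against a spread between replicate libraries. The residual may be technical.

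**Figure D2:**
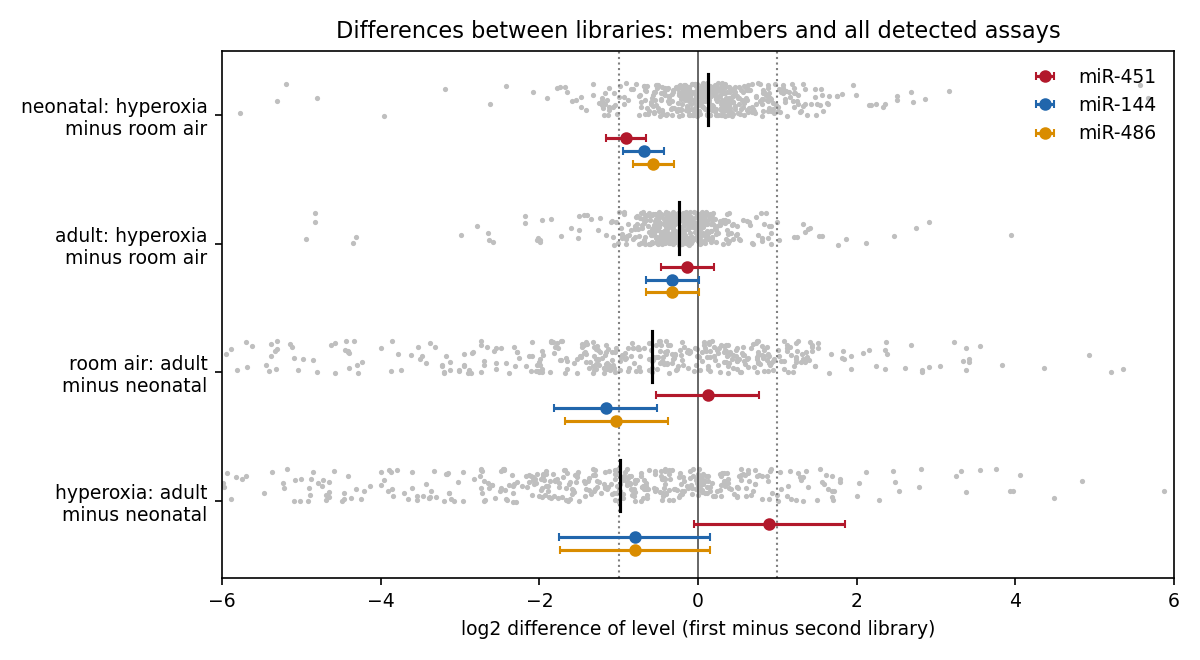
Log2 difference of level between 2 libraries (horizontal axis) for the 4 comparisons named at the left (rows). Grey points are all assays detected in both libraries, black bars their median, coloured points the members with the technical SD as error bar, and dotted lines mark 2-fold. Assays beyond 6 log2 are not drawn (4, 2, 21 and 21 from top to bottom). The members sit left of the median in neonatal hyperoxia, and miR-451 lies to the right of the other two in both age comparisons.

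Between ages the 3 miRNAs differed from one another: on the snoRNA202 scale miR-144 and miR-486 were lower in adult lung, and miR-451 was not. Between the room air libraries miR-144 differed by -1.16 log2 (2.24-fold lower in the adult) and miR-486 by -1.03 (2.04-fold lower), while miR-451 was at 0.12 (1.09-fold higher). So 2 of 3 members were at least 2-fold lower, in a comparison where 43.0% of 435 assays were at least 2-fold lower and 16.6% at least 2-fold higher. The differences of miR-144 and miR-486 were 1.79 and 1.59 technical SDs, and of assays within 1.5 cycles of them 72.4% and 56.2% differed at least 2-fold here. Between the hyperoxia libraries miR-144 was at -0.80 and miR-486 at -0.79, and miR-451 was at 0.90 (1.87-fold higher in the adult), each within 1 technical SD. None reached 2-fold there, against 49.3% of 450 assays lower and 10.9% higher.

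In the limma fit for age, the effect on miR-144 was -0.98 ± 0.31 log2 (± SE, adjusted p = 0.0947 by Benjamini-Hochberg in limma). That on miR-486 was -0.91 ± 0.30 (limma, adjusted p = 0.101) and that on miR-451 was 0.51 ± 0.37 (limma, adjusted p = 0.343). None of the 3 was called, where 30.0% of the 426 assays were called lower and 5.63% higher. Before adjustment miR-144 had a limma p of 0.0482, which was common in this fit. For age, 175 of the 426 assays were lower in adults with a limma p under 0.05, and 43 were higher. With limma's spread allowed to follow the mean level, miR-486 was called lower at the same effect (adjusted p = 0.0402). The share of all assays called in that fit is not given here, so this call has no background beside it.

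The direction of these age differences depended on the reference, and of the members only miR-451 kept its sign under all 6. In room air miR-451 was above 0 under all 6 references, from 0.12 to 2.77 log2, and in hyperoxia from 0.90 to 3.88. It was called higher with age when levels were set against U6 (3.32 log2; limma, adjusted p = 0.0101) or when each card was centred on its median (1.92; limma, adjusted p = 0.0452). miR-486 was below 0 under 4 of 6 in room air and 3 of 6 in hyperoxia, and with U6 it was called higher with age (1.90; limma, adjusted p = 0.0185). miR-144 was below 0 under 5 of 6 in room air and 4 of 6 in hyperoxia. The median of all assays moved too, from -0.57 in room air with snoRNA202 to 1.46 with U6. Relative to the median difference of the assays on its own card, which no reference RNA read on that card alters, miR-451 was at 0.52 in room air and 1.85 in hyperoxia. By the same measure miR-144 was at -0.19 and 0.24, and miR-486 at -0.64 and 0.16.

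**Figure D3:**
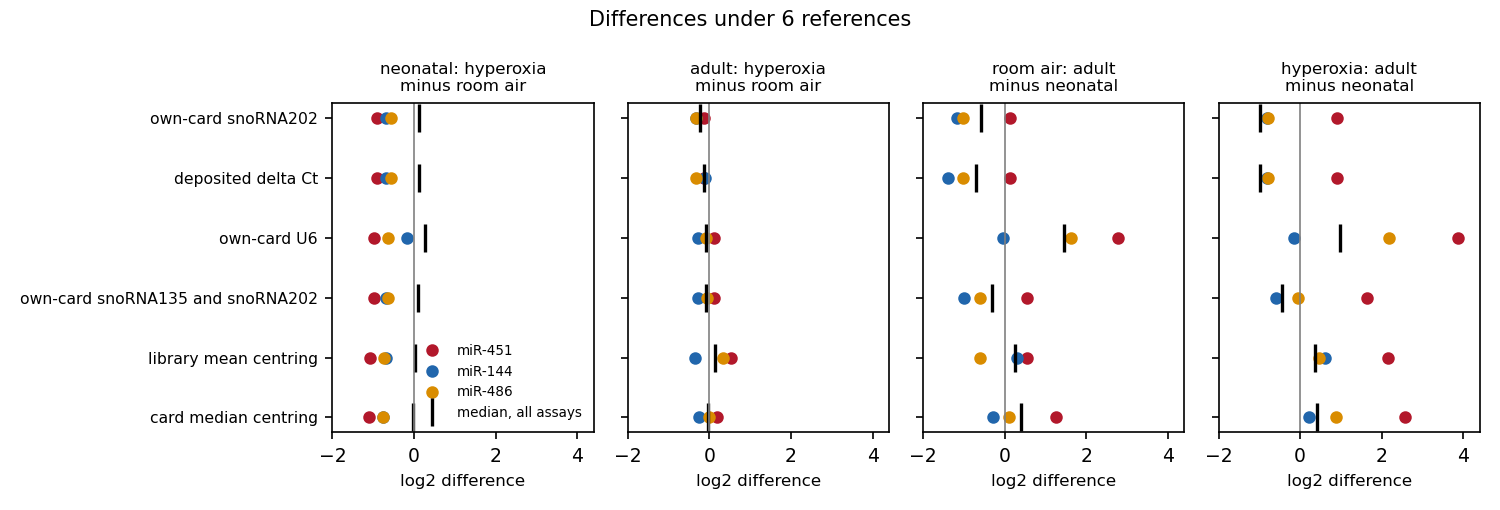
Log2 difference between libraries (horizontal axis) of the 3 members (coloured points) and the median of all assays (black ticks) under 6 references (rows), 1 panel per comparison. In the neonatal oxygen panel all members stay left of 0, whereas in both age panels the whole set slides to the right with U6.

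Made from a single transcript, miR-451 and miR-144 differed in profile over the 4 libraries, with an age difference in their gap somewhat above the technical SD between cards on the snoRNA202 scale. The Ct of miR-144 minus that of miR-451 was 6.74 cycles in newborns in room air and 6.34 in hyperoxia, and 6.99 and 7.89 in adults. These wells lie on different cards, and against each card's own snoRNA202 the gap was 5.48, 5.26, 6.77 and 6.96. On that scale both adult libraries held less miR-144 for their miR-451 than both neonatal ones. The change with age was 1.29 log2 in room air, with a technical SD between cards of 0.92, and 1.70 in hyperoxia, with an SD of 1.34. Without a reference it was 0.26 and 1.55. With oxygen the own-card gap differed by -0.22 in newborns and 0.19 in adults, both less than the SD between cards of 0.36 and 0.47.

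miR-451 and miR-486 share a card, so their gap needs no reference. The Ct of miR-451 minus that of miR-486 was 1.66 cycles in newborns in room air and 2.01 in hyperoxia, and 0.51 and 0.32 in adults. Both adult libraries thus held more miR-451 for their miR-486, with a change of -1.15 cycles in room air and -1.69 in hyperoxia. No technical SD was measured for a gap on 1 card. For a difference of 1 miRNA with age it was 0.65 log2 in room air and 0.95 in hyperoxia. miR-144 and miR-486, from different chromosomes and cards, stayed closest together: their own-card gap was 7.15, 7.27, 7.28 and 7.28, a range of 0.13 log2. The range was 0.90 on raw Ct and 0.65 with each card centred.

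Other pairs made from 1 transcript give a scale for these gaps. Of 27 such pairs listed, 23 lay on 1 card and were detected in all libraries, and some share a miRNA. Their Ct gaps ranged over 0.34 cycles (miR-23b and miR-27b) to 6.28 (miR-23a and miR-27a), with a median of 1.03. The widest rests on miR-23a near the detection limit in the neonatal libraries (Ct 34.9 and 33.5), and the next widest was 2.98 (miR-322 and miR-503). The gap of miR-144 and miR-451 ranged over 1.55 cycles on raw Ct and 1.70 log2 on the own-card scale, wider than 14 and 15 of the 23. That gap spans 2 cards, so it also holds differences between cards, which the 23 pairs do not. The 3 listed pairs on 2 cards had own-card ranges of 1.51 log2 (miR-132 and miR-212), 2.23 (miR-449a and miR-449c) and 3.45 (miR-206 and miR-133b). The gap of miR-451 and miR-486 ranged over 1.69, wider than 15.

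**Figure D4:**
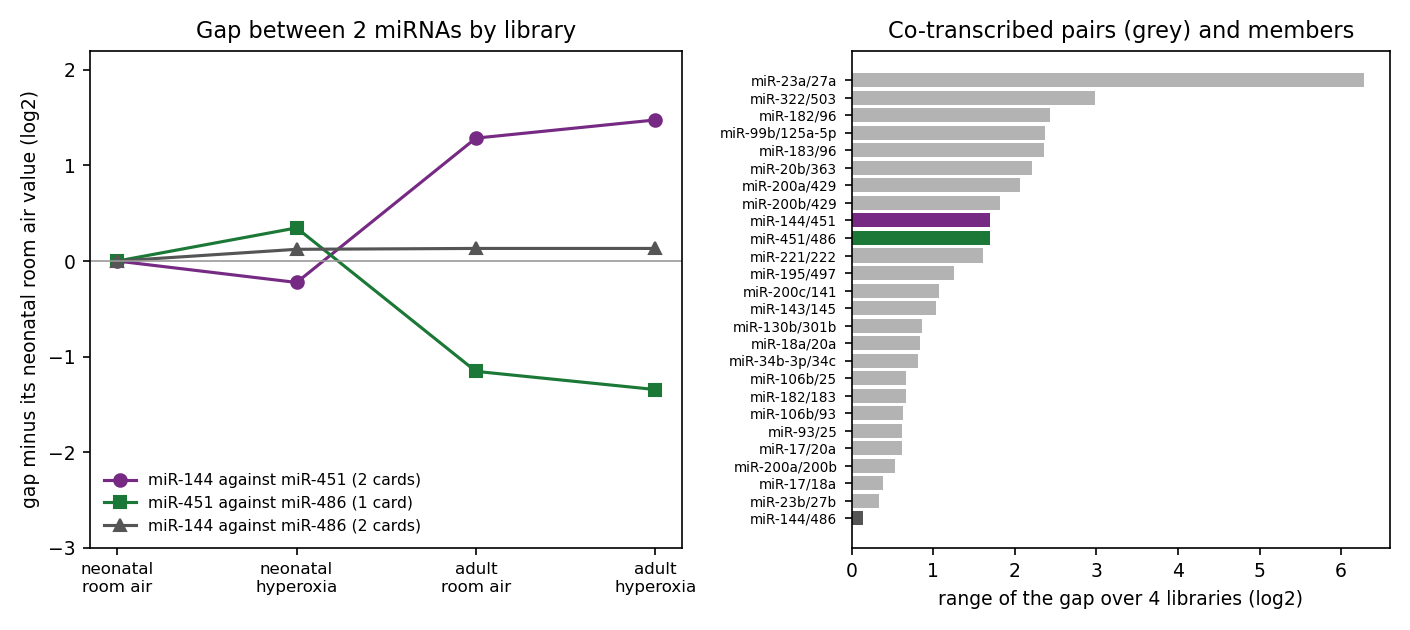
Left, the gap between 2 members in each library (log2 or cycles, minus its neonatal room air value), from own-card levels for pairs on 2 cards and from Ct for the pair on 1 card; a higher value means less of the first miRNA for the second. Right, the range of the gap over the 4 libraries for 23 co-transcribed pairs on 1 card (grey bars) and the member pairs (coloured bars). The gap of miR-144 and miR-451 stands at 1.70 and that of miR-144 and miR-486 at 0.13, both across 2 cards.

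Profiles were also compared with the 388 other assays that had a Ct of 32 or below in all libraries, as the root mean square difference of levels centred over the 4 libraries. On the own-card snoRNA202 scale miR-486 differed from miR-144 by 0.06 log2, with 0 of the 388 nearer. They lie on different cards, and 0.06 is below the technical SD of a gap between cards (0.36 to 1.34 log2), so these data do not resolve that rank. On raw Ct their gap ranged over 0.90 cycles. The nearest of the others to miR-144 were miR-16* at 0.10, miR-374 at 0.14, miR-20a at 0.17, the rat-named miR-207 at 0.18 and miR-139-5p at 0.19. miR-451 was 0.75 from miR-144, and 202 assays were nearer. They too lie on different cards, and 0.75 is inside the range of that technical SD, so this rank is not resolved either. The nearest to miR-451 were miR-425* at 0.09, the rat-named miR-148b-5p at 0.15, miR-190b at 0.16, miR-191* at 0.18 and miR-2182 at 0.21, all read on the second card. miR-451 was read on the first, and these distances are below the technical SD of a gap between cards, so their order is likewise unresolved. miR-101a, which shares part of the seed of miR-144, stood at -5.99, -5.78, -5.32 and -5.26 log2, which on the same scale was higher in adults by 0.67 in room air and 0.51 in hyperoxia, where miR-144 was lower.

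Other miRNAs that red cells carry in quantity had a median near 0 in newborn hyperoxia. Of 10 such miRNAs (miR-16, miR-92a, miR-25, miR-93, miR-106b, miR-15b, miR-19b, miR-185, miR-107 and miR-363), which most lung cells also express, 4 were below 0 and 1 was at least 2-fold lower, miR-363 at -1.07 log2. Of all assays 41.4% were below 0 and 8.53% at least 2-fold lower. The list median was 0.08 and ran from -0.12 to 0.08 over the 6 references. In adults 9 of 10 were below 0 after hyperoxia, 1 of them 2-fold, miR-107, where 71.4% of all assays were below 0 (median -0.36, and 0.30 once libraries were centred on their means). With age in room air 8 of 10 were below 0 and 4 at least 2-fold lower (median -0.83), where 61.8% of all assays were below 0 and 43.0% at least 2-fold lower, so these counts are near the background. The list median ran up to 1.82 with U6. In the limma fit 1 of the 10 was called for age, against 30.0% of all assays called lower. It was miR-15b, lower at -1.59 on the snoRNA202 scale (adjusted p = 0.0397) and higher at 1.23 with U6 (adjusted p = 0.0371). miR-221, miR-222, miR-150 and miR-24, which decline as red cells mature, were all above 0 in newborn hyperoxia (4 of 4 compared, median 0.63), led by miR-222 at 1.32, and stayed so under all 6 references. The fifth of that list, miR-155, was not detected in neonatal room air. In adult hyperoxia 4 of 5 of the list were below 0, where 71.4% of all assays were (median -0.375, and 0.29 once libraries were centred on their means). With age in room air 0 of 4 were below 0 (median 0.82), where 61.8% of all assays were.

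Among leukocyte miRNAs 1 of 5 compared was below 0 in newborn hyperoxia (miR-142-3p at -0.07 log2), where 41.4% of all assays were, with a median of 0.41 (0.21 to 0.41 over the 6 references) and miR-342-3p highest at 0.69. In adult hyperoxia 3 of 6 were below 0 (median -0.14, and 0.53 once libraries were centred on their means). With age in room air miR-142-3p was at 1.08 and miR-142-5p at 1.18, both typical of blood-forming cells, while the myeloid miR-223 was at -0.03 and miR-342-3p at -1.19, both above 0 with U6. In the limma fit 0 of 5 leukocyte miRNAs were called for age, against 30.0% of all assays lower and 5.63% higher. Platelet miRNAs (miR-223, miR-126-3p, miR-221 and miR-222) had a median of 0.68 in newborn hyperoxia, 0 of 4 below 0. The lists overlap, so their medians are not independent. miR-223 is also a leukocyte entry and miR-126-3p an endothelial one. miR-221 and miR-222, like the leukocyte entries miR-150 and miR-155, are also among the miRNAs that decline as red cells mature. Endothelial miRNAs had a median of 0.30 there (1 of 4 below 0) and epithelial ones of 0.73 (0 of 5 below 0). In adult hyperoxia 3 of 4 platelet, 3 of 4 endothelial and 5 of 5 epithelial miRNAs were below 0, where 71.4% of all assays were. Once libraries were centred on their means, 0, 0 and 2 of them were. The part of these lists in the erythroid values was not tested.

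miR-486 is also a muscle miRNA, and a striated muscle list was set beside it. Of 5 muscle miRNAs compared in newborn hyperoxia, 2 were below 0, miR-206 at -1.02 log2 and miR-208b at -0.37, where 41.4% of all assays were. The median was 0.83. The sixth of the list, miR-499, was not detected in neonatal room air (Ct 36.9). For age miR-206, of skeletal muscle, was called lower at -2.91 (limma, adjusted p = 0.0144) and stayed below 0 under all 6 references. It was the 1 called of 5 muscle miRNAs fitted, where 30.0% of all 426 assays were called lower. Between the room air libraries 2 of the 5 were below 0, where 61.8% of all assays were: miR-206 at -3.13 and miR-208b at -0.99, near miR-486 at -1.03. The other muscle miRNAs, miR-1, miR-133a and miR-133b, were at 0.10, 0.84 and 0.27, and the list median was 0.10. miR-23a, which plasma assays set against miR-451 to read red cell lysis, came late in newborn lung. Its Ct was 34.9 and 33.5 in the neonatal libraries, near the detection limit, and 27.3 and 29.5 in the adult ones. That was above the Ct of co-transcribed miR-27a by 15.8 and 14.7 cycles in the neonatal libraries and by 9.54 and 11.8 in the adult ones. The reason was not tested, so these values do not show how much miR-23a newborn lung holds.

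**Figure D5:**
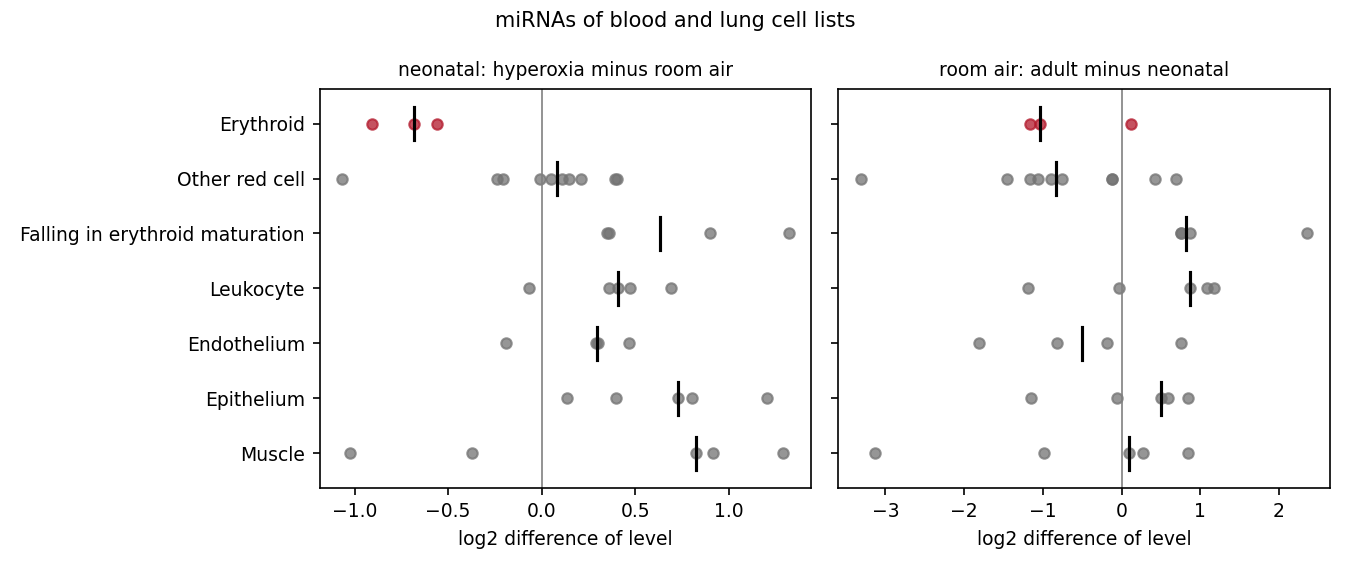
Log2 difference of level (horizontal axis) for each detected miRNA (points) of 7 lists (rows), with the list median as a black bar, for newborn hyperoxia minus room air (left) and for adult minus neonatal room air (right). On the left the 3 erythroid miRNAs lie between -0.91 and -0.56, and on the right miR-451 stands at 0.12, above the other two.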

How the data were processed

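Per the labels' protocols, total RNA was reverse transcribed using Megaplex primer pools, preamplified and read with TaqMan assays. The authors deposited Ct values and, per the file headers, delta Ct against snoRNA202, both on a log2 scale. Software and threshold settings: not given in the sources used here. Both deposited tables hold identical Ct values, and a Ct of 40 marks no crossing. In adult room air the deposited delta Ct of miR-144 uses the first card's snoRNA202, so levels were recomputed as own-card snoRNA202 Ct minus Ct (a shift of 0.225 for that value).

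Groups came from sample titles. Differences between 2 libraries were taken over assays detected in both (Ct up to 35) and counted from 1 log2 unit, with no test. The additive model of age and oxygen used limma 3.58.1 in R 4.3.3, with 1 residual and 2.16 prior degrees of freedom and Benjamini-Hochberg adjustment over 426 assays at 0.05. It was tested on simulated data. The technical SD is the root mean square gap between cards of U6, snoRNA135, U87 and Y1 differences, divided by the square root of 2; for a gap between cards it is not divided. The planned gap of miR-144 and miR-451 used Ct on the premise of 1 card, and the own-card gap was added after the files showed 2. A rule named the members, the 5 assays nearest in profile to each of miR-451 and miR-144, and members of the lists of red cell, leukocyte, platelet, endothelial, epithelial and muscle miRNAs. miR-101a, the extreme co-transcribed pairs and the list extremes were chosen with their values seen. The members and lists were chosen with earlier results of these data known. miR-126-3p was matched by its assay name, since the miRBase column gives it without an arm. RefSeq sequences were matched by name.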

Additional observations from a re-analysis of the deposited data

Results flagged for a closer look

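The raw Ct gaps between members changed in opposite directions with oxygen at the 2 ages, and these differences were not tested. The gap of miR-144 over miR-451 changed by -0.399 cycles in newborns and by 0.895 in adults, and that of miR-144 over miR-486 by -0.052 and 0.705. Both compare wells of different cards, and other scales do not all keep the opposite directions. The first changed by -0.22 and 0.19 against own-card snoRNA202, and by -0.22 and -0.035, the same direction at both ages, in the deposited delta Ct. Against own-card snoRNA202 the gap of miR-144 over miR-486 changed by 0.12 in newborns and stayed at 7.28 in adults. The gap of miR-451 over miR-486, on 1 card, changed by 0.347 and -0.190 and needs no reference.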

How the results depend on the processing

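No paired analysis was possible because each group has 1 library, and for the same reason no library could be left out. Of 122 alternative values, 94 kept their direction and side of the threshold or stayed within 1 technical SD. Part of these could not change direction. The fits with a Ct limit of 32, with a trend or without moderation keep each effect and alter only its error. The deposited delta Ct repeats the main value of miR-451 and miR-486. The count is therefore no measure of robustness. With U6, the age effect of miR-451 was 3.32 and that of miR-486 1.90, opposite in sign to its main value. U6 itself shifted unequally between cards with age. Also with U6, miR-144 was at -0.18 in newborn hyperoxia, room air age differences were 2.77 (miR-451), -0.040 (miR-144) and 1.62 (miR-486), and hyperoxia ones 3.88 (miR-451) and 2.19 (miR-486). With each card centred, age effects were 1.92 (miR-451) and 0.49 (miR-486, turned). Room air age differences were then 1.27, -0.29 and 0.11 (miR-486, turned), and hyperoxia ones 2.56, 0.22 and 0.87, each in the order miR-451, miR-144, miR-486. With library means, the age effect of miR-144 turned to 0.45 and its room air difference to 0.29. Hyperoxia age differences were then 2.16, 0.60 and 0.46, and adult oxygen differences 0.53 (miR-451) and 0.34 (miR-486). With a trend in limma's spread miR-486 passed the age threshold at -0.91. The room air change of the gap of miR-144 and miR-451, 0.26 on Ct, was 1.29 against own-card snoRNA202, 1.51 in the deposited delta Ct and 1.55 with each card centred. With a Ct limit of 32, assays 2-fold higher in adult hyperoxia numbered 11 in place of 17. The references for the lists were chosen after seeing the data, as were the own-card and card-centred gaps. The cause of these shifts was not tested. At the Ct of miR-144 no control RNA was read, so its technical error was not measured.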
